A study of Caenorhabditis elegans with 4 samples.

Results

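The genes described here are cct-1 to cct-8, which encode the 8 subunits of the CCT chaperonin (also called TRiC) of Caenorhabditis elegans. They are 8 of 19985 annotated protein-coding genes. They were taken by name as a protein complex and were selected on their LIN-15B peaks, since earlier results of the same peak lists had shown several of them beside strong peaks. The rank, score and position of those peaks are therefore given as a description, with no test. All peaks with a summit inside a gene or within 1000 bp of it were collected.

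The chaperonin is a double ring of ATP-driven chambers in the cytosol, in which newly made proteins fold out of contact with the rest of the cell. Each ring holds 1 copy of each of the 8 subunits, and actin and tubulin are its best known clients. Each subunit has its own gene, and in C. elegans these genes lie on 4 chromosomes. LIN-15B is a nuclear protein with a THAP-type zinc finger, of the synMuv B class, and its loss lets somatic tissues switch on genes that belong to the germline.

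The assay was chromatin immunoprecipitation followed by sequencing (ChIP-seq) in 1 group of whole L4 larvae of mixed sex, strain OP184, genotype unc-119(tm4063) III; wgIs184. The larvae carried LIN-15B with a GFP tag, described as a C-terminal GFP-FLAG fusion in the labels of replicate 3, and every animal studied came from this single transgenic line. Replicates 1 and 2 were single libraries, and replicate 3 had 2 technical libraries that share 1 peak list. The labels call the replicates biological and say no more about their cultures. There was no untagged or second condition, and whole larvae mix all tissues, so a peak cannot be assigned to a cell type.

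Each replicate list holds 30000 peaks ranked by the authors' score, which has no stated unit, and reaches far into background. The pooled list was called on all 3 replicates together. The optimal list holds the 383 peaks kept by the authors' test of agreement between replicates, and these were the 383 highest-scoring pooled peaks. Of them, 365 lay on the nuclear chromosomes. Ranks in every list also count peaks outside the nuclear chromosomes, among them the optimal peak at rank 1. A replicate peak is called top-ranked here when it was among the 383 highest of its own list. Coordinates are on ce11, which is WBcel235.

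Optimal peaks lay at 3 of the 8 subunit genes, cct-1, cct-7 and cct-8. Over all protein-coding genes 3.13 percent had one under the same rule. The other 5 genes, cct-2, cct-3, cct-4, cct-5 and cct-6, had none. Each of these 3 genes had a peak in the short interval between its own start and that of a gene read in the opposite direction. The sequence under these 3 summits is shown because it carries the strongest signal at the complex, and the centre of the interval upstream of cct-4, which has a similar length and no pooled peak, is shown beside them for contrast. All are 300 bases of the RefSeq WBcel235 assembly, plus strand, 5′ to 3′. Capitals mark matches to CGCG, to GAANNTTC (the core of a heat shock element) and to TTTGAA or its reverse complement TTCAAA (the core of a cell cycle homology region). In the cct-8 window 1 match of GAANNTTC and 1 of CGCG share a base and appear as 1 run of capitals. The windows are chrII:8185045-8185344 for cct-1, chrIV:1094197-1094496 for cct-8, chrV:1871824-1872123 for cct-7 and chrII:8283288-8283587 for cct-4.
cct-1 optimal window: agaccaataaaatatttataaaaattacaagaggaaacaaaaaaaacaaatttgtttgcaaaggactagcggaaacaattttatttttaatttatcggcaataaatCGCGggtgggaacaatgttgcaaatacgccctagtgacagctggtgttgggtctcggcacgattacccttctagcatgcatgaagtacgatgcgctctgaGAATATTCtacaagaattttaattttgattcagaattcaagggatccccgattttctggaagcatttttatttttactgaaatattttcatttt
cct-8 optimal window: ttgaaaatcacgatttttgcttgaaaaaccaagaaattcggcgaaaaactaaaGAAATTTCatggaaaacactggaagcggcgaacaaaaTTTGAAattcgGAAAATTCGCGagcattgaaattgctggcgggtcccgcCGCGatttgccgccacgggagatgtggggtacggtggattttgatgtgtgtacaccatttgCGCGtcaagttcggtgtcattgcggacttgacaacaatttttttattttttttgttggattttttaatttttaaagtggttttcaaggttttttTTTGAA
cct-7 optimal window: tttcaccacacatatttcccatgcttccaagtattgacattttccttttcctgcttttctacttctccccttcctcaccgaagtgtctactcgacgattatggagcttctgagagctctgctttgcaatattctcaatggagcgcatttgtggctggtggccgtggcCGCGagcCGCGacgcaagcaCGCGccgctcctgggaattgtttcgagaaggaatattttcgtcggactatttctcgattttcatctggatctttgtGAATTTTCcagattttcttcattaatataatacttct
cct-4 interval centre: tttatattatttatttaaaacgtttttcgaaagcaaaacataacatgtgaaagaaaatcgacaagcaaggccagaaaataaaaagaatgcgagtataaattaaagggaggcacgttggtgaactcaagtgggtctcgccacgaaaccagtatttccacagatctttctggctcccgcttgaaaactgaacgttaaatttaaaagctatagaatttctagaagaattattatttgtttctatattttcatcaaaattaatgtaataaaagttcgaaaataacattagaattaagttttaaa

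The alpha subunit gene cct-1 (WBGene00000377, chrII:8185443-8187601, plus strand) had the strongest peak of the complex. Its optimal peak, chrII:8185024-8185363, ranked 37 of 383 with a score of 102.1, against a median optimal score of 42.7. The summit was intergenic and 249 bp upstream of the cct-1 start. The start of mig-5, a Dishevelled family gene of Wnt signalling on the other strand, was closer at 171 bp. The interval between the 2 genes was 419 bp long.

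The cct-1 peak ranked 69 in replicate 1, 28 in replicate 2 and 44 in replicate 3, with scores of 22.0, 38.2 and 39.0. All 3 replicates thus placed it among their top-ranked peaks. Its mean log10 rank was 1.64 ± 0.20 (SD, n = 3), and the 3 replicate summits spanned 33 bp. Replicate 3 had its summit at the pooled position, replicate 1 lay 9 bp to the left of it and replicate 2 lay 24 bp to the right.

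The theta subunit gene cct-8 (WBGene00021934, chrIV:1087108-1093920, minus strand) had the peak on which the replicates differed least. The optimal peak, chrIV:1094176-1094515, ranked 74 with a score of 68.5. Its summit was intergenic, 426 bp upstream of the cct-8 start and 195 bp from the start of the divergent gene Y55F3AR.2, in an interval of 620 bp. The window also covers an end of the noncoding gene Y55F3AR.4.

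Replicate ranks of the cct-8 peak were 104, 85 and 97, with scores of 17.8, 24.0 and 25.9. It was top-ranked in all 3. The mean log10 rank was 1.98 ± 0.04 (SD, n = 3), where the median SD over the 339 nuclear optimal peaks found in all 3 lists was 0.34. The replicate summits spanned 28 bp, against a median of 52 bp (quartiles 28.5 and 90 bp) over those peaks. Both medians were taken without regard to rank, so they are not matched to the cct-8 peak in strength.

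**Figure D1:**
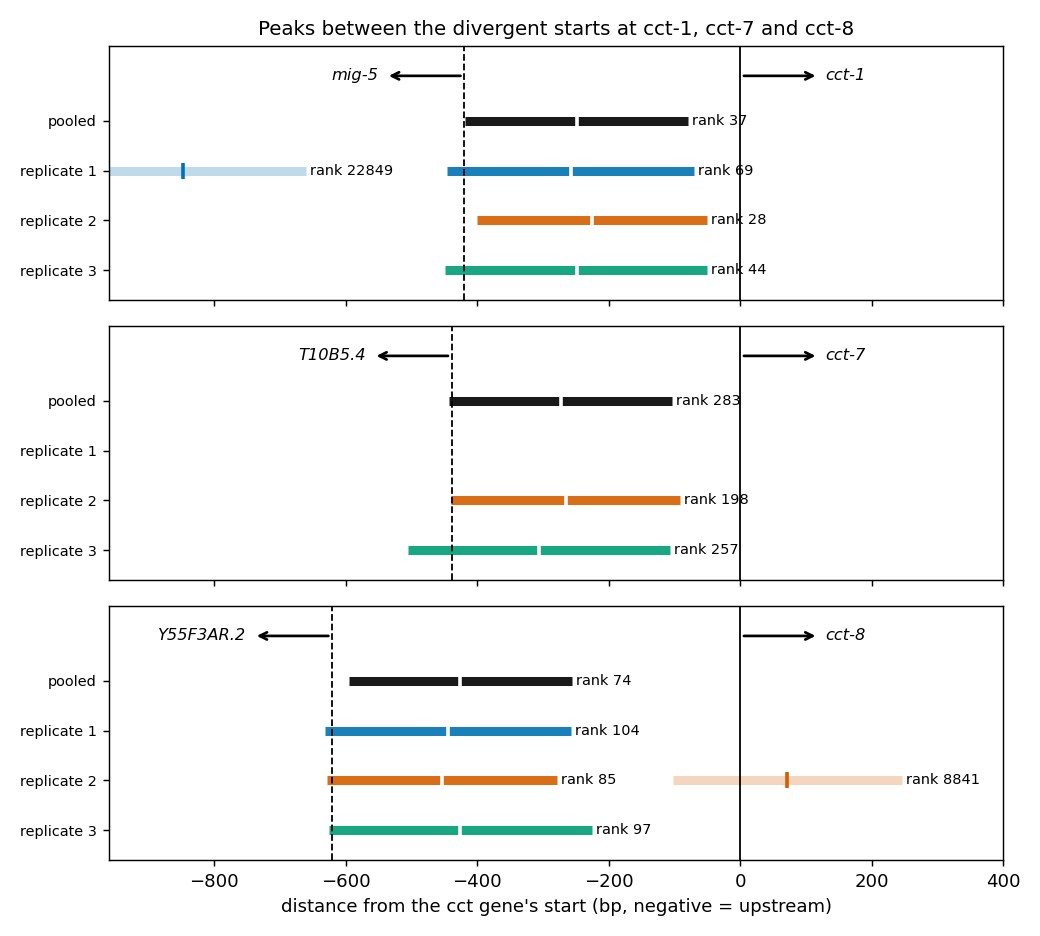
Peaks between the divergent starts upstream of cct-1, cct-7 and cct-8, as distance from the start of the cct gene in bp (the solid line is that start and the dashed line the start of the opposite gene). Bars are peaks in the pooled list and in each replicate, with their rank in that list, small ticks are summits, and pale bars are peaks outside the top 383. The summits stack within 33 bp at cct-1 and 28 bp at cct-8, and replicate 1 has no peak in the interval upstream of cct-7.

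The eta subunit gene cct-7 (WBGene00020391, chrV:1872246-1875505, plus strand) was the only subunit gene with 2 optimal peaks, and both were weaker. The upstream one, chrV:1871803-1872142, ranked 283 with a score of 34.7. Its summit lay 273 bp upstream of cct-7 and 166 bp from the start of the divergent gene T10B5.4, in an interval of 438 bp. The interval also holds the noncoding gene T10B5.13. The pooled summit was intergenic, and the replicate 2 summit, 8 bp from it, lay inside T10B5.13.

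This upstream cct-7 peak ranked 198 in replicate 2 and 257 in replicate 3, with scores of 16.2 and 15.0. Replicate 1 had no peak there in a list that runs down to a score of 2.4, and its nearest summit was 1937 bp away at rank 18769. Rank 283 in the pooled list therefore came with strong peaks in replicates 2 and 3 and none in replicate 1. The mean log10 rank over the 2 replicates with a peak was 2.35 ± 0.08 (SD, n = 2).

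The second cct-7 peak, chrV:1875584-1875923, ranked 316 with a score of 31.6 and lay 249 bp past the 3′ end of the gene. Its summit was in an annotated UTR exon of zig-11, a gene on the opposite strand that encodes an immunoglobulin-domain protein. No protein-coding start lay within 1000 bp, and the nearest one was that of cct-7 at 3502 bp. Replicates ranked it 1389, 282 and 797, with scores of 7.6, 14.3 and 9.6. It was top-ranked in replicate 2 alone, with a mean log10 rank of 2.83 ± 0.35 (SD, n = 3) and summits spanning 88 bp.

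**Figure D2:**
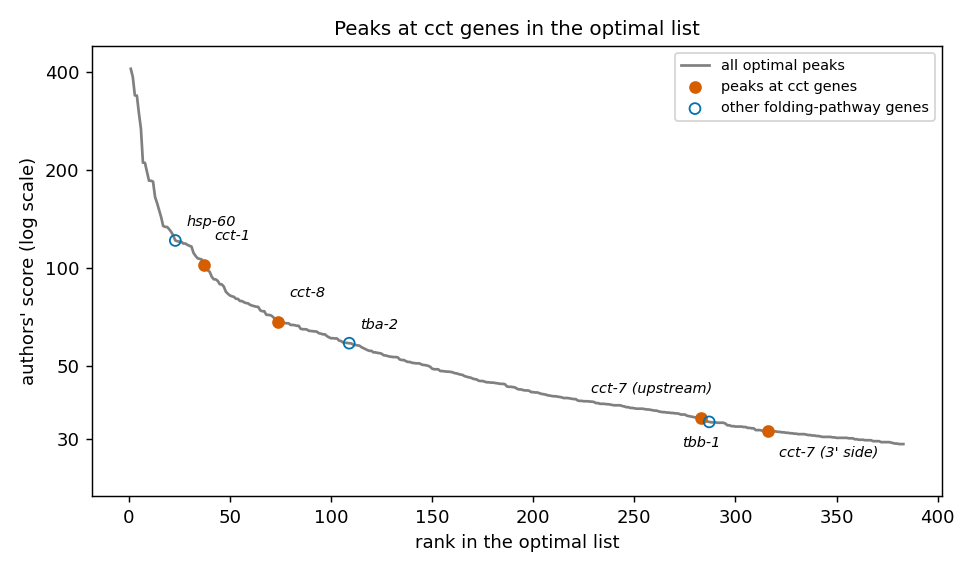
Score (log scale) against rank for the 383 optimal peaks (line), with the 4 peaks at cct genes as filled points and the peaks at hsp-60, tba-2 and tbb-1 as open points. The cct-1 peak (score 102.1) and the cct-8 peak (68.5) lie on the steep part of the curve, and both cct-7 peaks (34.7 and 31.6) lie near its low end of 28.9.

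Among the subunit peaks, the one just inside the optimal threshold was the 3′ peak of cct-7 at a score of 31.6. The one just outside was a cct-6 peak at 20.1, and the lowest score in the optimal list was 28.9. The gap between these members spanned pooled ranks 316 to 915.

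Pooled peaks of any rank lay at 5 of the 8 genes, where 37.5 percent of protein-coding genes had one. The share is higher than for optimal peaks because the pooled list is long, and the additional peaks were weak. The zeta subunit gene cct-6 (WBGene00000381, chrIII:5853530-5855687, minus strand) had 2. The stronger, at rank 915 with a score of 20.1, had its summit at chrIII:5853553 in the cct-6 UTR, 284 bp from the start of ddx-23, a DEAD-box helicase gene. Replicate 1 ranked it 6488 and replicate 2 ranked it 3870, and replicate 3 had no peak there. The other, at rank 1723 with a score of 16.9, had its summit 330 bp upstream of cct-6 and 1 bp from the start of alh-9, an aldehyde dehydrogenase gene. Its replicate ranks were 18419, 11310 and 6750, all far below the top-ranked peaks.

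The epsilon subunit gene cct-5 (WBGene00000380, chrIII:4499188-4508114, minus strand) had 2 pooled peaks as well, both below the threshold and neither in its upstream interval. An intronic peak 2258 bp inside the gene ranked 1345 with a score of 18.0. Its replicate ranks of 15269, 2299 and 19823 were highest in replicate 2. The other peak, at rank 1900 with a score of 16.5, lay past the 3′ end in an intron of atf-7, a bZIP transcription factor gene, 180 bp from an atf-7 start. The best replicate peaks of cct-5 were at rank 1032, 2299 and 1192, the highest of the 5 genes without an optimal peak, but their summits lay at 3 separate places, 2816, 2262 and 868 bp inside the gene.

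Within cct-8 there were 3 further pooled peaks, at ranks 1886, 3584 and 8033, in a coding exon, an intron and a UTR exon. None of them was found in all 3 replicate lists. The upstream cct-8 peak was thus the only one of its 4 pooled peaks with a top-ranked replicate peak.

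The beta, gamma and delta subunit genes had no pooled peak. The beta subunit gene is cct-2 (WBGene00000378, chrII:8927741-8929815, plus strand), whose best replicate ranks were 13699 and 17149, with no peak in replicate 3. The gamma subunit gene is cct-3 (WBGene00018782, chrII:2233540-2243539, plus strand), with best ranks of 18353, 3438 and 8733. The delta subunit gene is cct-4 (WBGene00000379, chrII:8283667-8285711, plus strand), with 21649 in replicate 1, no peak in replicate 2 and 8872 in replicate 3. The summits behind these ranks lay at different positions in each replicate. At cct-3 the peaks of replicates 2 and 3 overlapped at their edges, with summits 325 and 620 bp inside the gene. The best replicate 1 peak of cct-3 lay elsewhere, 7812 bp inside it. The nearest optimal summit was 124990 bp from cct-2, 645881 bp from cct-3 and 98473 bp from cct-4, and the last of these is the cct-1 peak itself. For cct-5 and cct-6 the distances were 23513 and 174395 bp.

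**Figure D3:**
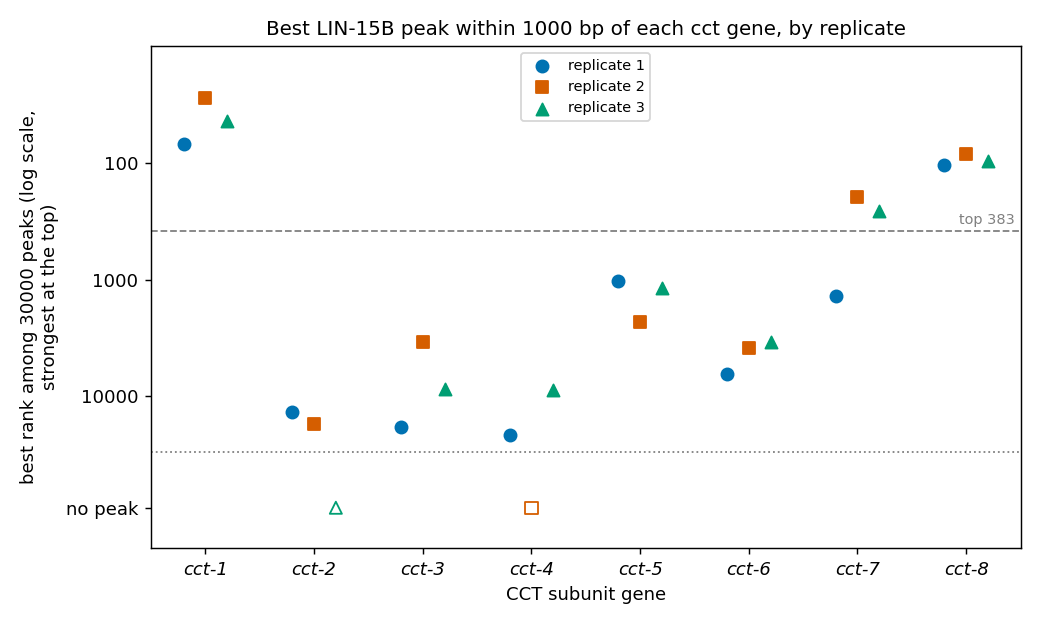
Best rank (log scale, strongest at the top) among the 30000 peaks of each replicate for peaks inside or within 1000 bp of each cct gene. The dashed line is rank 383, the dotted line is the end of the lists, and open symbols mark genes with no peak in that replicate. At cct-1 and cct-8 all 3 replicates lie above the dashed line, at cct-7 replicates 2 and 3 do, and at the other 5 genes none does.

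Counted by replicate, top-ranked peaks lay at 2 of the 8 genes in replicate 1, at 3 in replicate 2 and at 3 in replicate 3. The background over all protein-coding genes was 2.97, 3.01 and 2.97 percent. In all 3 replicates at once the count was 2 of 8, cct-1 and cct-8, against 1.23 percent. The rule by which the genes were chosen used these same lists, so nothing is read from the differences. Peaks of any rank were present at 8, 7 and 7 of the 8 genes in the 3 lists, where the background was 75, 76.2 and 73.9 percent, so low-ranked replicate peaks do not set the subunit genes apart. Of the 24, 30 and 29 peaks counted at the 8 genes in replicates 1, 2 and 3, 17, 21 and 16 ranked below 10000. Each list holds 30000 peaks, so most peaks of any list rank below 10000 by construction. Nothing particular to the subunit genes is read from these counts.

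The 8 genes share an arrangement that comes from the annotation and not from the peak lists, though the choice of the genes by their peaks is not independent of it. Each one has a divergent upstream neighbour, that is, the nearest non-overlapping protein-coding gene on its upstream side is read away from it. Noncoding genes were left out of this count. The same holds for 45.4 percent of 19968 nuclear protein-coding genes with an upstream neighbour. The interval between the genes was 330 bp at cct-6 and alh-9, 419 bp at cct-1 and mig-5, 438 bp at cct-7 and T10B5.4, 458 bp at cct-4 and nst-1, 620 bp at cct-8 and Y55F3AR.2, 740 bp at cct-5 and F25F2.1, 1069 bp at cct-3 and F54A3.6 and 1189 bp at cct-2 and B0457.2. The median over all divergent genes was 1550 bp, so all 8 intervals were shorter than that.

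Of the 6 subunit genes with a divergent interval under 1000 bp, 3 had an optimal summit in it, and the other 3 did not. Over all 3502 genes with such an interval 7.34 percent had one, compared with 2.68 percent of 5568 genes with a longer divergent interval and 1.19 percent of 5694 genes whose upstream neighbour within 1000 bp is read in the same direction. Neither of the 2 subunit genes with a longer interval, cct-2 and cct-3, had one. Interval length did not sort the genes with an optimal peak from those without. The shortest interval, at cct-6, held only the weaker pooled peak at rank 1723, and cct-4 (458 bp, no pooled peak) lies in length between cct-7 (438 bp) and cct-8 (620 bp).

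**Figure D4:**
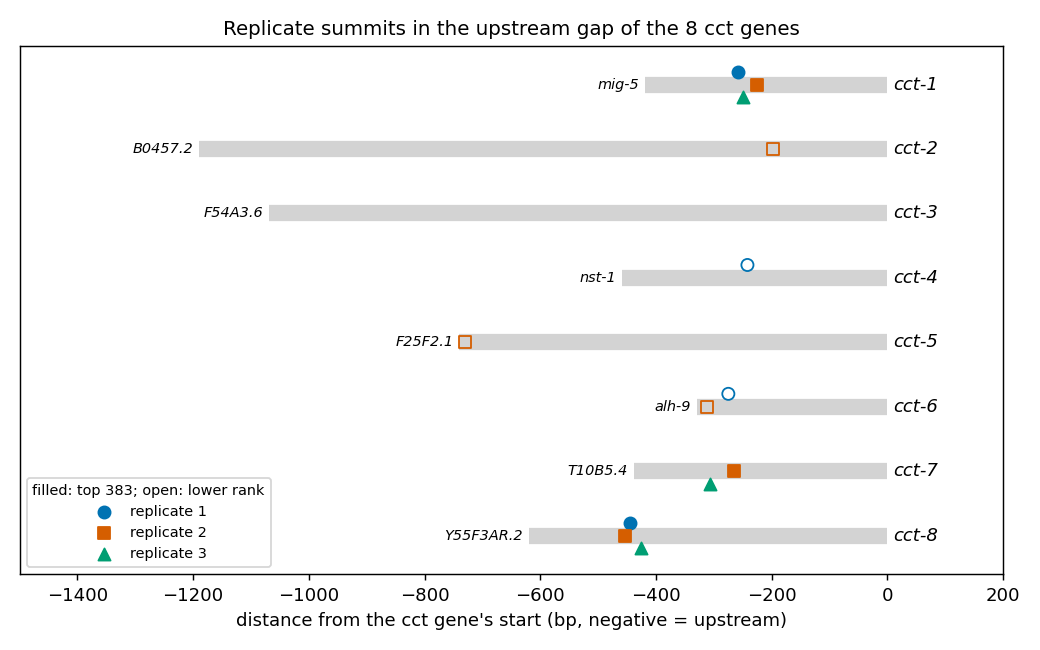
Upstream intervals of the 8 cct genes (grey bars), drawn from the start of the cct gene at 0 to the nearest protein-coding gene upstream, with the replicate summits inside them. Filled symbols are top-ranked peaks and open symbols are lower ones. Filled symbols appear at cct-1 and cct-8 in all 3 replicates and at cct-7 in replicates 2 and 3, and cct-4, with an interval of similar length, has 1 open symbol.

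In each of the 3 intervals with an optimal peak the summit lay nearer to the start of the neighbour than to that of the cct gene, at 171 against 249 bp for cct-1, 166 against 273 bp for cct-7 and 195 against 426 bp for cct-8. Of all 495 nuclear genes with an optimal summit within 1000 bp of their own start, 37.2 percent had another start closer. Those genes include every promoter arrangement, whereas between 2 divergent starts 1 of them is closer unless both are equally far. The share is therefore not a matched comparison. A peak between 2 divergent starts cannot be assigned to 1 of them from position, and if each peak is given only to its nearest start, 1 subunit gene keeps an optimal peak. That gene is cct-7, through its 3′ peak.

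Motifs were searched on both strands in 300 bp around each summit. CGCG was present in all 4 subunit windows with an optimal peak, once at cct-1, 3 times each at cct-8 and upstream of cct-7, and 4 times at the 3′ peak of cct-7. It was present in 71.8 percent of 365 nuclear optimal windows and 27.6 percent of 8253 windows of other pooled peaks, so its presence is common among optimal peaks. The heat shock element core GAANNTTC was also present in all 4, with 2 matches at cct-8 and 1 in each of the others. It was found in 20.5 percent of optimal windows and 18.9 percent of other pooled windows.

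TTTGAA was present in the cct-8 window and in the 3′ window of cct-7, and in 63.8 percent of optimal and 60.9 percent of other pooled windows. None of the 4 windows held the E2F-type motifs TTCCCGC (4.66 percent of optimal and 3.19 percent of other pooled windows) or GCGCGAAA (6.3 and 1.11 percent), the E-box CACGTG (6.03 and 5.17 percent) or the repeat GAGAGA (27.9 and 19.9 percent). GCGCGAAA contains CGCG, so matches of the first are also matches of the second. Such matches describe letters in a window and are not evidence of a bound site.

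The window of the cct-4 interval held none of these motifs. Windows of the same size at the centres of the cct-5 and cct-6 intervals, also without an optimal peak, did hold some. That of cct-5 had 2 matches to CGCG and 1 to TTTGAA, and that of cct-6 had 2 to TTTGAA. Over the whole interval rather than the window, CGCG was present upstream of 7 subunit genes and absent upstream of cct-4, with 4 matches at cct-7, 3 at cct-8, 2 each at cct-2 and cct-5, and 1 each at cct-1, cct-3 and cct-6. GAANNTTC was present upstream of cct-1, cct-3, cct-5, cct-7 and cct-8, of which cct-3 and cct-5 had no optimal peak. Neither motif therefore separated the subunit genes with an optimal peak from those without over whole intervals. Among genes with a divergent interval of 300 to 1000 bp, CGCG was present in 82.7 percent of those with an optimal summit in the interval and in 56.3 percent of those without, and GAANNTTC in 48.5 and 34.2 percent. The intervals of cct-2 and cct-3 are longer than 1000 bp and fall outside that range.

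The G+C content of the windows was 34 percent at cct-1, 39 percent at cct-8, 45 percent upstream of cct-7 and 39.7 percent at its 3′ peak. The median was 37.7 percent over optimal windows and 35.7 percent over other pooled windows. The cct-4 interval centre had 29.7 percent, below all 4. The centres of the cct-5 and cct-6 intervals, also without an optimal peak, had 36.3 and 32 percent. In these windows the cct-5 value was above that of cct-1, but its window was centred on the interval and not on a summit. Over whole intervals the order was reversed, with 30.7 percent at cct-5 and 32.5 percent at cct-1. The other intervals had 33.7 percent at cct-8, 40 at cct-7, 28.4 at cct-4, 32.7 each at cct-3 and cct-6, and 35.4 at cct-2.

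The nuclear optimal peaks whose ranks were most like those of each subunit peak were found by distance in log10 rank over the replicates that held the subunit peak. For cct-1 these were the peaks nearest to picd-1, icd-2 and cox-5A, with distances of 0.14, 0.15 and 0.19 over 3 replicates. For cct-8 they were those of Y87G2A.18, K04G7.1 and the ribosomal protein gene rpl-7A, at 0.09, 0.12 and 0.12. For the upstream cct-7 peak, over replicates 2 and 3, they were those of sti-1, pqn-87 and trap-3, at 0.07, 0.07 and 0.09. The gene sti-1 encodes a cochaperone that links Hsp70 and Hsp90, and its peak, unlike that of cct-7, was also top-ranked in replicate 1, at 142. For the 3′ peak of cct-7 they were those nearest to cysl-4, snr-4 and hal-3, at 0.11, 0.19 and 0.20. All these peaks are named by the nearest protein-coding start only, which can be far. It was 3460 bp from the summit for cysl-4, 968 bp for hal-3 and 946 bp for pqn-87.

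Other genes of the folding pathway were counted in lists, to be read against the 3.13 percent of all protein-coding genes with an optimal peak and the 37.5 percent with a pooled peak. Prefoldin hands unfolded actin and tubulin to the chaperonin, and of 8 genes for prefoldin subunits and chaperonin cochaperones 0 had an optimal peak and 6 a pooled peak. The highest of these pooled peaks were at txdc-9 (rank 419, score 27.6) and pfd-4 (rank 467, score 26.3), just below the optimal threshold. Of 6 tubulin folding cofactor genes 0 had an optimal and 4 a pooled peak, and of 5 genes for other reported clients 0 and 2.

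Of 21 actin and tubulin genes, the main clients, 2 had an optimal peak, against 3.13 percent of all genes, and 12 a pooled peak, against 37.5 percent. The alpha-tubulin gene tba-2 had a peak 173 bp upstream of its start, at rank 109 with a score of 58.9, and the replicate peaks that held its summit ranked 90, 174 and 99. The beta-tubulin gene tbb-1 had one 251 bp upstream, at rank 287 with a score of 33.8, and the start of rib-2 was closer at 127 bp. No peak of replicate 1 held that tbb-1 summit, and the peaks that did ranked 172 in replicate 2 and 429 in replicate 3, so replicate 1 lacked a peak there, as it did upstream of cct-7.

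The mitochondrial chaperonin belongs to another class, built from 1 kind of subunit encoded by hsp-60. A peak at rank 23 with a score of 121.6 lay at position -609 bp relative to the hsp-60 start and 204 bp from the start of Y22D7AL.10, which was closer. The replicate peaks that held its summit ranked 35, 27 and 33, beside 69, 28 and 44 for the cct-1 peak. Like the upstream subunit peaks, it had another start closer to its summit.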

How the data were processed

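ChIP-seq peak lists on ce11 were used as deposited: the optimal list, the pooled list and 1 list for each of 3 biological replicates, from 4 libraries in 1 group. The deposited signal column is a score with no stated unit, and it served only to rank peaks within a list. Per the labels, lists of peaks and background fed an irreproducible discovery rate analysis, from which the optimal list came. For aligner, caller and cutoff, names and settings were not given in the sources used here. No counts are in the lists, so the depth of each library is unknown and no counting interval was computed.

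Summits were counted from 1. A peak belonged to a gene if its summit was inside it or within 1000 bp, using Ensembl release 115 on WBcel235. A replicate peak matched a pooled peak if it contained the pooled summit. Distances run to the nearest annotated transcript start. Sequence came from the RefSeq WBcel235 assembly. The 8 genes, the pathway lists and the motifs were chosen with earlier results of these data known. The symbol hsp-10 was not matched in the annotation. Named genes are the 8 subunits, their closer neighbours, the 3 optimal peaks most like each subunit peak in log10 rank (Euclidean distance), and pathway genes with an optimal peak; txdc-9 and pfd-4 were named after their values were seen. No test was run, so errors are SDs over replicate lists. Functions that assign peaks to genes, find the peak holding a position and find motifs were tested on simulated data. The ranking step was not. Alternatives were windows of 500 and 2000 bp, any overlapping base, the nearest start alone, the upper 50 percent of each list, the top 200 and top 1000 peaks, a match that covers at least 50 percent of the optimal peak, each replicate left out, and, chosen after seeing the data, the ce10 optimal list. Python 3.11.15 was used with numpy 2.4.6, pandas 2.3.3 and matplotlib 3.10.9.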

Additional observations from a re-analysis of the deposited data

How the results depend on the processing

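Giving each peak only to its nearest protein-coding start left 1 subunit gene with an optimal peak in place of 3 (cct-7, through its 3′ peak) and 3 with a pooled peak in place of 5, since the alternative removes genes whose neighbour is closer by construction. Windows of 500 and 2000 bp and any overlapping base kept 3 and 5. The upper 50 percent of the lists by score gave 2 with an optimal peak and 5 with a pooled peak. Leaving out each replicate, by keeping optimal peaks inside top-ranked peaks of both others, gave 2 to 3 genes with an optimal peak. The count was 3 without replicate 1 and 2 without replicate 2 or without replicate 3. Genes with a top-ranked peak in every replicate numbered 2, or 2 to 3 with a replicate left out. It was 3 without replicate 1, where cct-7 enters. With a replicate left out, mean log10 ranks ran from 1.55 to 1.74 at cct-1, 1.96 to 2.00 at cct-8, 2.30 to 2.41 upstream of cct-7 and 2.68 to 3.02 at its 3′ peak. On ce10, where the optimal list has 351 peaks, matching by chromosome, width and score found all 4 subunit peaks, at ranks 37, 74, 283 and 316. The match required the same score to a relative 0.0001. It therefore shows the same peaks on another build and is not an independent check. No paired analysis was possible because there is 1 group. Depth is unknown, so the lack of a peak upstream of cct-7 in replicate 1 cannot be weighed against the depth of that library.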

Other observations

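A further sequence feature was seen in the printed windows and counted afterwards, so it was chosen after the data were examined. The letters GGTCTC, searched on both strands, occur in the upstream interval of 5 of the 8 subunit genes, cct-1, cct-2, cct-3, cct-4 and cct-6, and in none of those of cct-5, cct-7 and cct-8. Only cct-1 of the 5 had an optimal peak. The match was present in 31.1 percent of genes with a divergent interval of 300 to 1000 bp and an optimal summit in it, and in 20.8 percent of those without. The intervals of cct-2 and cct-3 are longer than 1000 bp and fall outside that range. Among windows around summits it was present in 14.5 percent of optimal and 8.94 percent of other pooled windows. These are descriptions of letters, and no test was run.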
